A study of Homo sapiens with 12 samples.

Results

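Junctions whose 5' and 3' splice sites are both missing from the gene annotation were examined in human neurons depleted of TDP-43. They are the rows of the authors' deposited table of changed introns that the authors classed as unanchored cryptic, 735 of 15980 listed junctions (4.60%). These 735 members lay in 340 of 2994 listed clusters (11.4%) and carried 332 gene names. The neurons, labelled wild type before knockdown, were induced by forced NGN2 expression from 1 embryonic stem cell line, WA01, which is an established human line. Both groups were NGN2 neurons: 3 RNA-seq libraries had received scrambled shRNA and 3 had received TDP-43 shRNA, each for 7 days. Whether the libraries of a group are separate cultures is not in the labels, and the deposited p-values may thus reflect technical spread only. The level of TARDBP, which encodes TDP-43, and of neuronal marker genes was not analysed here, so neither the knockdown nor the cell type was checked.

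TDP-43 is an RNA-binding protein that favours UG-rich sequence and keeps many unannotated exons out of messenger RNA. An unannotated exon that is taken up between annotated exons gives junctions with 1 annotated and 1 unannotated end. A junction with both ends unannotated arises where 2 unannotated exons are joined, where an unannotated exon is joined to a shifted splice site, or within a transcript that the annotation lacks. A cluster is a set of introns that are linked through common splice sites, and the share of an intron is its part of the cluster's junction reads. The deposited value is the change of that share between the groups, given here in percentage points. Changes within a cluster sum to 0, so a gain of 1 intron is always matched by losses of others. A positive value was read as a larger share in the knockdown, because the cryptic STMN2 junction, known to appear when TDP-43 is lost, has a positive value. The adjusted p belongs to the cluster, not to the single junction, and the words gain and loss below refer to the sign of the deposited value.

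The RefSeq windows around transcription starts (300 bases, GRCh38.p14) held 45 of the 1121 distinct splice sites of the members, and show what these sites look like. All 29 donors in them were followed by GT on the strand of the cluster, and all 16 acceptors were preceded by AG. The junction ends were read as exon bases because GT and AG then fall at these places. These counts are thus no independent test of the sites. GT stood at 4.53% and AG at 7.17% of all positions of these windows, counted on both strands. Of the annotated donors in such windows, 262 of 264 had GT, and the rest had GC. The sites below are the 7 with the largest change among them, and the donor and acceptor of a short member in ZNF292. They run 5′ to 3′ on the transcript strand, with up to 10 exon and 20 intron bases, and capitals mark the first or last intron bases.
LOC100287592 donor (chr5:50970177-50970206, minus strand): tgactcagagGTttgttttgatttttaaat
TMEM182 donor (chr2:102737004-102737033, plus strand): catcaatacgGTaagcacacaccagtttgt
TRIP4 donor (chr15:64387779-64387808, plus strand): cgtgagagagGTtggtgttgcgaagggaac
NAB1 donor (chr2:190648962-190648991, plus strand): acagcgcgggGTgggggagtggaggcggcg
PM20D2 donor (chr6:89118163-89118192, plus strand): tgggatccggGTatggggggtcctggagtg
ZNF25 donor (chr10:37976052-37976081, minus strand): ctcaataaagGTgagctgcttctattatta
CENPBD1P1 acceptor (chr19:58586135-58586164, plus strand): aactgtccccacacccacAGcgggcccagc
ZNF292 donor (chr6:87155352-87155381, plus strand): cccgctcgggGTaagtaaaccgccgttttc
ZNF292 acceptor (chr6:87155543-87155572, plus strand): tgtgttatcacgtgacccAGgtgcgtacgc

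The TMEM182 donor, which opens with GTAAG, gained 7.7 points in the authors' deposited table. The LOC100287592 donor, which opens with GTTTG, served 4 members, and the largest change among them was 9.2 points, in the authors' deposited table. The 9 members of LOC100287592 had 3 gains and 6 losses in the authors' deposited table. TRIP4, a transcriptional coactivator gene, gained 5.8 points at its donor, while PM20D2 had -5.3 points in the authors' deposited table. The NAB1 donor served 2 members, and had 5.6 and -3.9 points, per the authors' deposited table. The largest value at the CENPBD1P1 acceptor was 4.7 points, and ZNF25 had 3.7 points, in the authors' deposited table. The ZNF292 member between the printed donor and acceptor gained 1.2 points in the authors' deposited table. The letters TGTGTG, a form of the UG repeat that TDP-43 binds, were searched on both strands. They stood in 8 of the 47 windows with a member site (17.0%) and in 17.2% of all 34935 windows. These windows lie near gene starts, so they say nothing of sites deep in introns, whose sequence was not used here.

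Most members changed little. Over the authors' deposited table, 386 members had a gain (47.9% of all listed junctions did), 295 a loss (47.6% of all listed junctions did) and 54 a change of 0. Gains were 56.7% of the changes other than 0 (95% exact binomial interval 52.9 to 60.4, over junctions that are not independent of each other). The share of gains was 55.6% for junctions with only the 5' site unannotated, 54.5% with only the 3' site unannotated, 61.2% for new pairs of annotated sites and 42.9% for annotated junctions. The median size of a change was 0.6 points for members, against 0.9 and 1.1 points for the junctions with 1 unannotated site and 2.8 points for annotated ones. A change under 1 point was listed for 433 members (58.9%), against 37.8% of all listed junctions. At 5 points or more, 49 members (6.67%) gained and 28 (3.81%) lost, where 12.2% of all listed junctions gained and 12% lost as much. The members' changes ran from -18.1 to 23.4 points and those of all junctions from -91.0 to 91.0 points. Changes of 5 points or more were thus a smaller share of the members than of the whole list. Clusters with a member were also larger, with a median of 8.0 junctions against 4.0 in the other listed clusters. Sizes of change were not compared at equal cluster size. The classes were not tested against each other, because junctions of a cluster share reads and sum to 0.

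**Figure D1:**
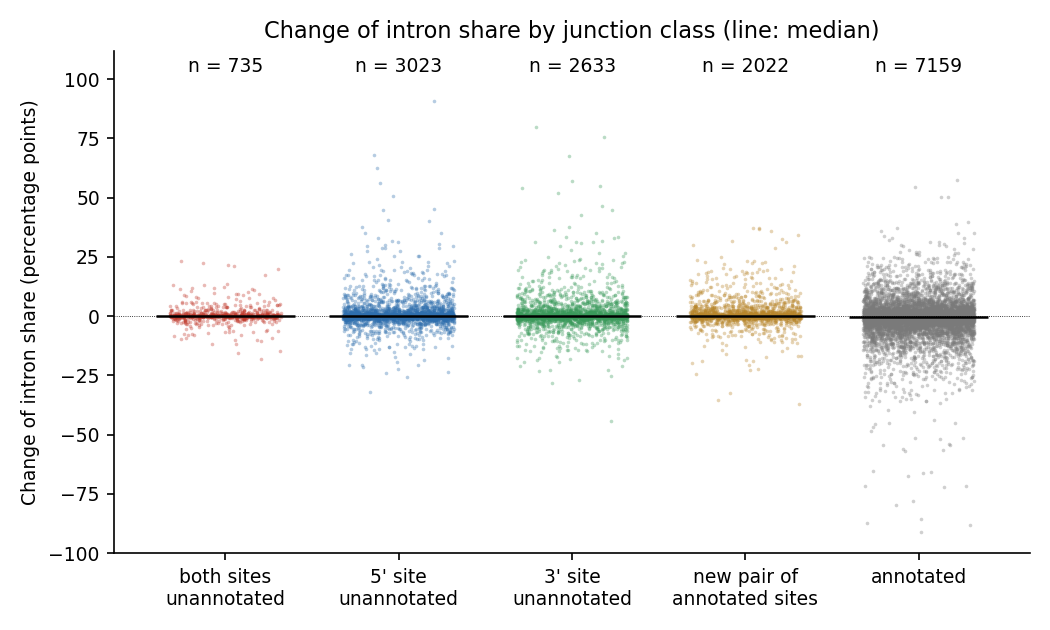
Each point is 1 junction of the authors' deposited table, placed by class along the x axis and by its change of intron share in percentage points on the y axis; black lines are medians. The 735 members sit between -18.1 and 23.4 points, inside the range of each other class shown.

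In each of the 4 clusters with the largest member gains, at least 1 annotated junction lost share. SERGEF encodes a protein related to guanine nucleotide exchange factors. On the minus strand of chromosome 11 it held 2 members, of 3008 nt (17863782 to 17866791, 22.5 points) and 16804 nt (17846761 to 17863566, 19.9 points), in the authors' deposited table. They bound an unannotated exon of 217 nt between them. The annotated intron from 17788413 to 17878208 had -51.2 points in the same cluster of the authors' deposited table (adjusted p = 2.55e-11). From the same annotated donor at 17878208, unannotated acceptors at 17863782, 17867003 and 17874477 gained 10.1, 8.2 and 6.5 points, and the one at 17846761 had -15.9 points, in the authors' deposited table. A cryptic polyadenylation site at 17863590, inside the 217 nt exon, had a usage of 2.45% in control and 16.5% in the knockdown, with 1 deposited value per group. SERGEF was called shorter in 3' end-seq, at -0.141 (change of the usage index) in the authors' deposited table.

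OGG1 encodes the glycosylase that removes oxidised guanine from DNA. Its only member, from 9781600 to 9787728 on the plus strand of chromosome 3, gained 21.7 points in the authors' deposited table (for the cluster, adjusted p = 1.13e-05). It left an unannotated exon of 88 nt that starts at 9781513. Annotated donors at 9751949, 9754885 and 9756816 reached that exon with 5.8, 5.6 and 0.3 points, while the 4 annotated junctions of the cluster lay between -13.5 and -2.5 points, in the authors' deposited table. OGG1 was called distal from RNA-seq polyadenylation, at 0.799 in the authors' deposited table. In ZNF826P, a zinc finger pseudogene, the member from 20409045 to 20409830 on the minus strand of chromosome 19 gained 23.4 points in the authors' deposited table, the largest gain of the 735. It followed an unannotated exon of 127 nt that the annotated donor at 20424786 reached with 31.2 points, while the direct junction from that donor to 20409045 had -44.4 points, in the authors' deposited table (for the cluster, adjusted p = 2.22e-07). The acceptor at 20409045 lies 21 nt from the annotated one at 20409024, and the exon's junction to the annotated acceptor gained 9.3 points in the authors' deposited table. In ADCY7, an adenylyl cyclase gene, the member from 50246203 to 50246881 on the plus strand of chromosome 16 gained 21.1 points in the authors' deposited table (for the cluster, adjusted p = 0.00725). The same unannotated donor had -12.5 points toward the annotated acceptor at 50287912 and -2.1 points toward that at 50292676 in the authors' deposited table. SERGEF, OGG1 and ZNF826P thus show unannotated exons that follow an annotated donor in the same cluster, and ADCY7 a new acceptor for a donor that is itself unannotated.

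**Figure D2:**
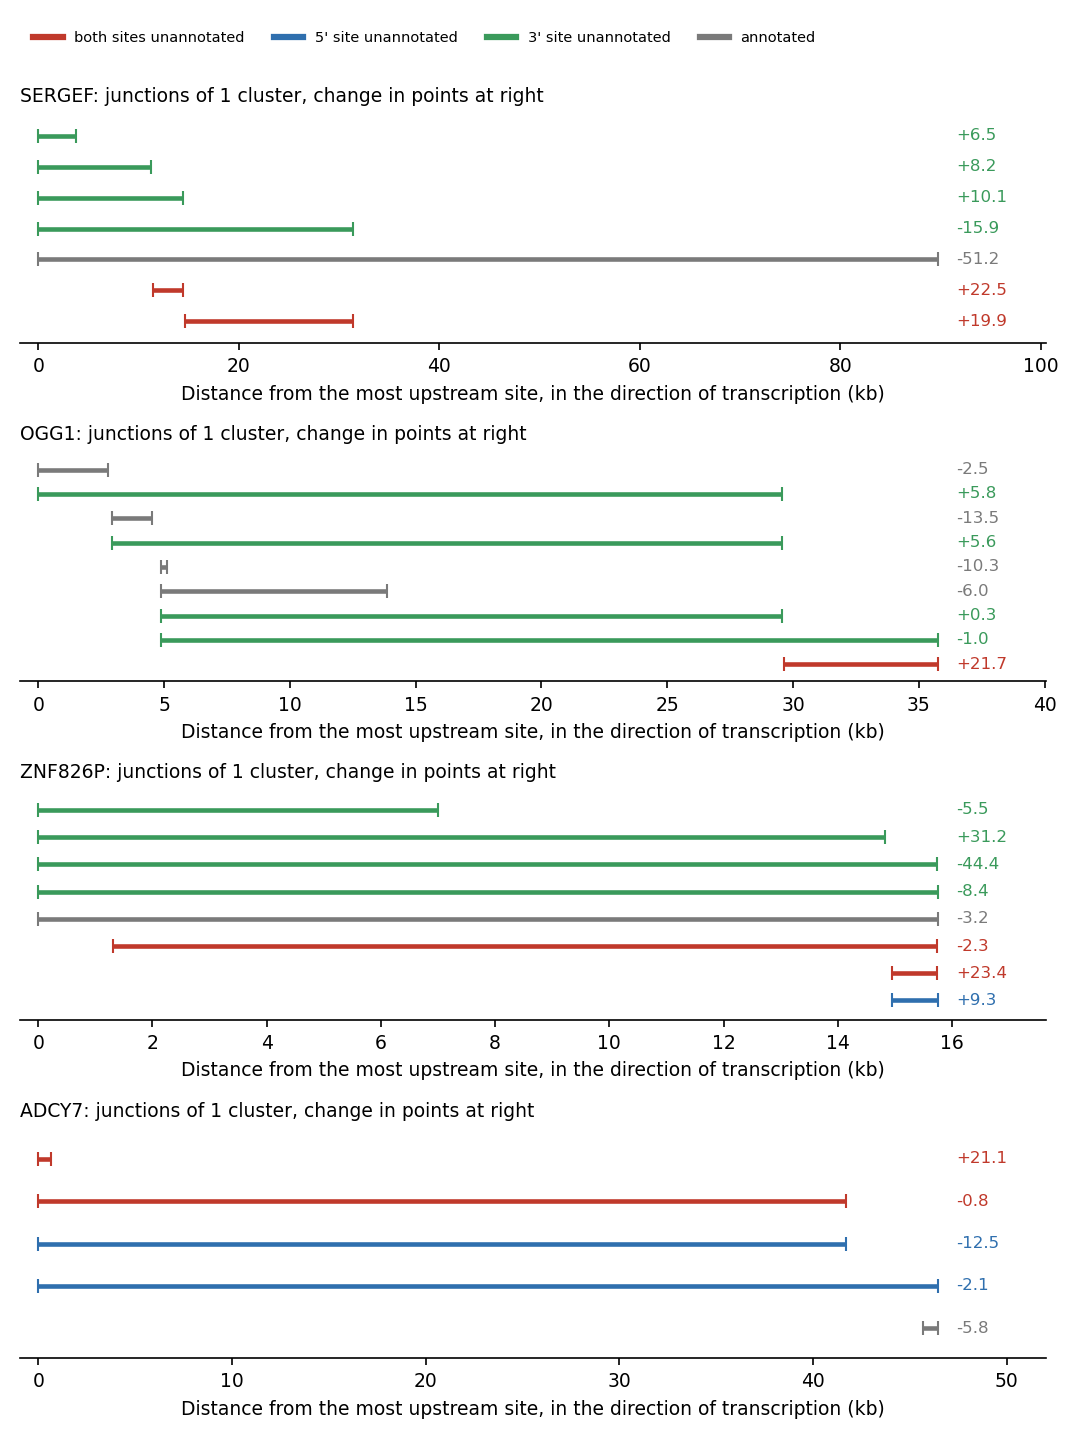
Each line is 1 junction of the named cluster, drawn from its donor to its acceptor in kb from the most upstream site; colours give the class and the numbers at right the change of intron share in points. The members (red) have 22.5 and 19.9 points in SERGEF, 21.7 in OGG1, 23.4 and -2.3 in ZNF826P, and 21.1 and -0.8 in ADCY7.

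The next gains were in genes of several kinds. DPP7, a dipeptidyl peptidase gene, had 1 member of 7233 nt with 13.5 points whose donor lay 11208 nt upstream of the RefSeq start, while the annotated junction of the cluster had -29.0 points, in the authors' deposited table. CDK10, a cyclin-dependent kinase gene, likewise had a member that began 4193 nt upstream of the RefSeq start, with 11.9 points in the authors' deposited table. FAM45A (RefSeq DENND10) gained 13.3 points at a member of 136 nt, and SLC9B2, a member of the sodium/proton exchanger family, 13.2 points at one of 5978 nt, in the authors' deposited table. ADGRL2 encodes a latrophilin, an adhesion receptor of synapses. Its member of 284 nt joined unannotated exons of 45 and 27 nt and gained 11.8 points while the annotated intron around it had -19.9 points, in the authors' deposited table. SEMA4D encodes a semaphorin, a guidance cue for axons. Its cluster held 6 members, among them one of 20016 nt with 11.5 points and one of 861 nt with 9.4 points, joined through an unannotated exon of 66 nt, in the authors' deposited table (for the cluster, adjusted p = 1.13e-21). The same donor as that of the 20016 nt member had -24.1 points toward the annotated acceptor at 89455953 in the authors' deposited table.

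The 12 largest losses ran from -18.1 to -8.3 points. LINC00342, a long noncoding RNA gene, had the largest, -18.1 points at a member of 8195 nt, in the authors' deposited table. SRRM3 encodes a neuronal regulator of microexons. Its member from 76273595 to 76280055 on chromosome 7 had -15.4 points, and it ended at an unannotated exon of 20 nt whose junction to the next annotated exon gained 10.3 points, in the authors' deposited table (for the cluster, adjusted p = 0.0463). LINC00630 had -14.7 points, NAA38, an acetyltransferase subunit gene, -11.9 points and CAPRIN2, an RNA-binding protein gene, -11.6 points at 1 member each in the authors' deposited table. RBM4B, a splicing regulator gene, had -10.4 points at a member of 611 nt and -22.9 points at the junction into the same unannotated exon, while the annotated junction gained 35.8 points, in the authors' deposited table (for the cluster, adjusted p = 0.00118). SLC12A5 encodes KCC2, the potassium-chloride transporter that sets neuronal chloride. Its member of 297 nt had -10.1 points and its annotated introns gained 6.1 and 6.6 points in the authors' deposited table (for the cluster, adjusted p = 5.3e-05). TMUB2 at -9.9, PPFIA4 (a liprin of the presynaptic scaffold) at -9.5, ZNF608 at -9.2, PARP8 at -9.1 and DNAJB4 (a chaperone of the Hsp40 family) at -8.3 points followed in the authors' deposited table. In RBM4B and SLC12A5 the loss of the member thus stood beside a gain of annotated junctions, the reverse of SERGEF and OGG1. In SLC12A5, however, the unannotated donor of the member gained 3.3 points toward the annotated acceptor at 46034948 in the authors' deposited table.

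Some members that shared 1 splice site had changes of opposite sign. Of the members in 1 cluster, 23 pairs had a common site, at least 2 points of gain in one and at least 2 points of loss in the other, over 15 clusters. These pairs were chosen after their values were seen, and since a cluster sums to 0 they have no test. In LINC00342 the members of 22145 and 8195 nt left the same donor at 95836937 and had 17.2 and -18.1 points, per the authors' deposited table. In CAPRIN2 the donors at 30754751 and 30754681, 70 nt apart, reached the same acceptor and had 10 and -11.6 points, per the authors' deposited table. In NAA38 the donors at 7883235 and 7857383 reached 1 acceptor and had 9.0 and -11.9 points, per the authors' deposited table. GS1-124K5.11 had 12.2 and -8.1 points and SLC20A2, a phosphate transporter gene, 10.9 and -6.4 points at such pairs in the authors' deposited table. The shared site was the acceptor in 15 pairs and the donor in 8. Pairs of at least 5 points each way were found in 5 clusters, those of the 5 genes just named.

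**Figure D3:**
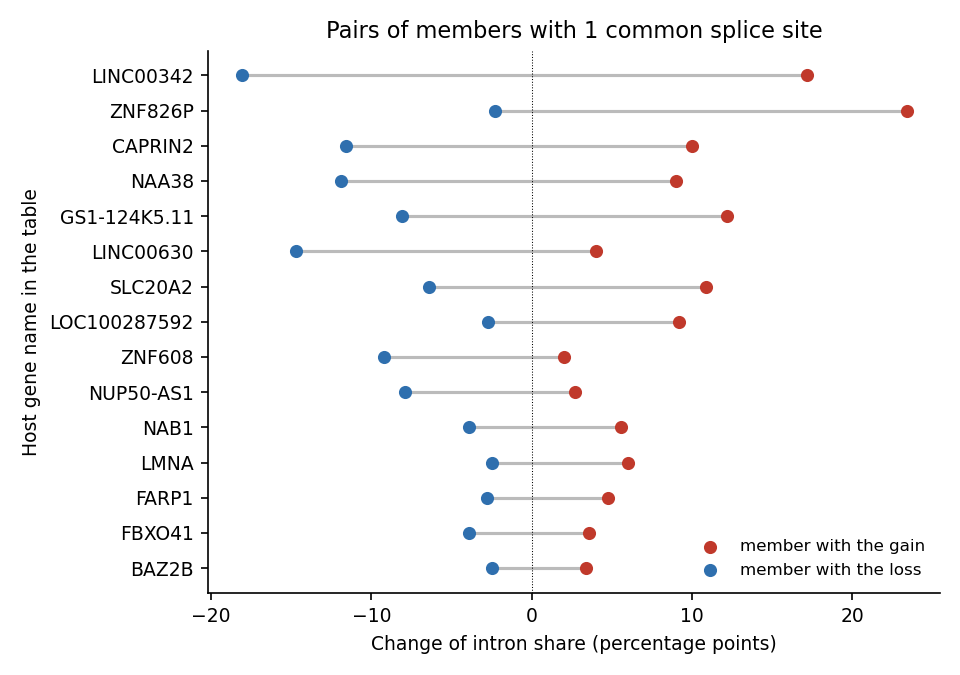
For each of the 15 clusters with such a pair, the widest pair is drawn as 2 points joined by a line, with the change of intron share in percentage points on the x axis and the gene name on the y axis. The widest pair is that of LINC00342, at 17.2 and -18.1 points.

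Each member had other junctions in its cluster, as the definition of a cluster requires. The 340 clusters held a median of 8.0 junctions (range 2 to 41), against 4.0 in the other listed clusters. None of the 340 held members only: 333 held an annotated junction, 297 one with only its 5' site unannotated, and 286 one with only its 3' site unannotated. Another 408 listed junctions, in 53 clusters under 1 gene name, were classed as of unknown strand. How junctions came into that class was not in the sources used here. The absence of clusters of members only may follow from the classing, and nothing is read from it. A single member was found in 190 clusters and 5 or more members in 36 clusters, which together held 259 of the 735. A larger cluster offers more junctions to be classed, so the number of members is not independent of the size of the cluster. A member gained most in 53 clusters (15.6%) and lost most in 34 (10%), while an annotated junction gained most in 125 (36.8%) and lost most in 209 (61.5%). Members were 22.1% of the junctions in these clusters and held 20.6% of the summed gains and 11.8% of the summed losses. Added up within a cluster, members came to at least 5 points in 41 clusters and to at most -5 points in 24 clusters.

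Many of the members' sites were also joined to an annotated site. The donor was joined to an annotated acceptor by another junction of the cluster for 436 members (59.3%), and the acceptor to an annotated donor for 395 (53.7%). Both held for 180 members (24.5%) and neither for 84 (11.4%). Clusters are built from introns with common sites, so some sharing of sites is fixed in advance. The same shares were not computed for the other classes. Sites lay far from annotated sites of the same kind in the cluster, at a median of 5148 nt for donors and 6198.5 nt for acceptors. Both sites were over 1000 nt from such a site for 441 members (60.0%), and both were within 100 nt for 8 members (1.09%). Another junction of the cluster ended at most 500 nt before the donor of 373 members, or began at most 500 nt after the acceptor of 455, which outlines an exon next to them. There were 534 such exons, and 446 of them (83.5%) had no annotated edge in the listed junctions, with a median length of 100.5 nt (quartiles 62.25 and 139.75). An annotated junction of the cluster enclosed 411 members (55.9%), and 30 members (4.08%) enclosed an annotated junction. An outlined exon stood on both sides of 243 members (33.1%).

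Members were on the strand of their host gene in all 553 cases where the RefSeq windows gave that strand. How the authors tied gene names to clusters was not in the sources used here, so this may be no independent check. The RefSeq gene of the same name held both sites of 606 members (82.4%) and 1 site of 36 members. For 62 members both sites lay outside it, and 31 had no RefSeq gene of that name on the chromosome. The donor lay upstream of the RefSeq start for 45 members and the acceptor past the RefSeq end for 54. Unannotated refers to the annotation that the authors used, whose gene names are in part older: 25 of the 332 names were matched through a synonym and 5 were unmatched.

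Intron length spanned 72 to 234983 nt, with a median of 2994 nt (quartiles 872 and 11202). The median was 3622 nt for junctions with only the 5' site unannotated, 2972 nt with only the 3' site unannotated, 3290 nt for annotated ones and 3777 nt over all listed junctions. The shortest members were those of NSUN5 (72 nt, 8.8 points), EIF4G2 (75 nt, -0.1 points), COPS5 (81 nt, -0.3 points), SPECC1L (81 nt, 0.9 points) and BCL2L1 (86 nt, 0.3 points) in the authors' deposited table. HMGN1, a nucleosome-binding protein gene, and UBXN1 also had one of 86 nt each, at 0.2 and -1.7 points in the authors' deposited table. NSUN5 encodes an RNA methyltransferase, and its short member was set against -11.2 points for a longer intron to the same acceptor in the authors' deposited table. The longest were those of FAM19A2 (RefSeq TAFA2, 234983 nt, 6.1 points), GRIP1 (171949 nt, 1.3 points), TENM2 (147325 nt, -5.3 points), PTPRD (135423 nt, -0.9 points) and NEDD4L (120003 nt, -1.6 points) in the authors' deposited table. GRIP1 encodes a scaffold for glutamate receptors, TENM2 a teneurin and PTPRD a receptor phosphatase. Members over 30000 nt numbered 51 (6.94%), where 12% of all listed junctions were as long, and members up to 300 nt numbered 67 (9.12%), against 8.38%. Members up to 300 nt had 32 gains and 30 losses, and those over 300 and up to 1000 nt 71 and 68. Members over 1000 and up to 3000 nt had 75 and 64, and those over 3000 and up to 10000 nt 98 and 62. Members over 10000 and up to 30000 nt had 80 and 50, and longer ones 30 and 21. The same counts were not made over all listed junctions, so nothing is read from them.

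**Figure D4:**
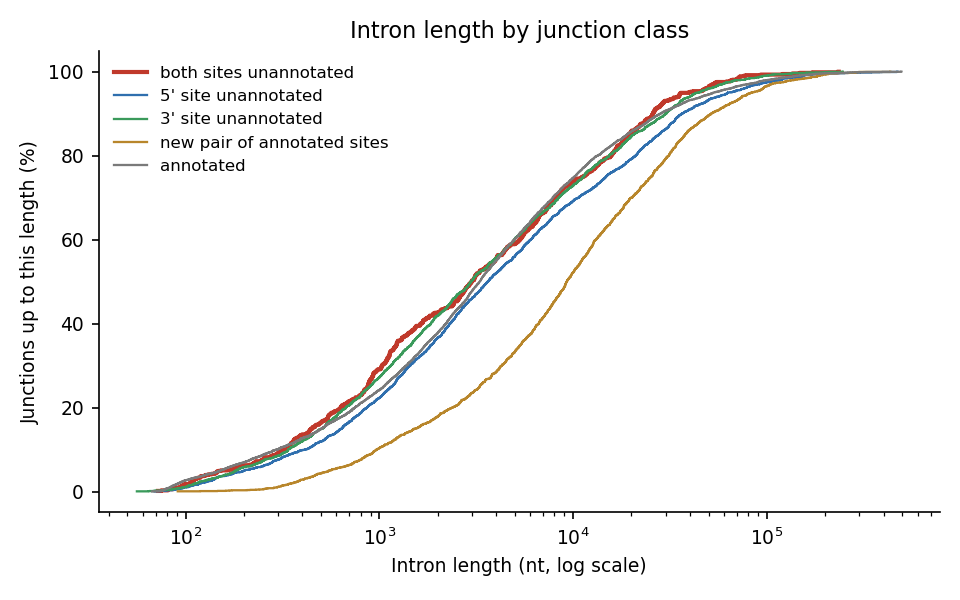
The curves give, for each class, the percent of junctions (y axis) up to a given intron length in nt (x axis, log scale). The curve of the members (thick red, median 2994 nt) runs near that of annotated junctions (median 3290 nt) and left of that of new pairs of annotated sites (median 9273.5 nt).

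In the 5 genes with most members, no member reached 5 points. GRB10, an adaptor of insulin and growth factor receptors, held 16 members with 8 gains and 8 losses, between -1.2 and 1.2 points in the authors' deposited table. RIMS2, a scaffold of the presynaptic active zone, held 15 members between -2.5 and 1.7 points, 11 of them gains, in the authors' deposited table. ZNF91 held 12 members from -1.3 to 2.8 points and the transcription factor gene ZEB1 11 from -3.2 to 0.5 points in the authors' deposited table. NCOA1, a nuclear receptor coactivator gene, held 10 from -1.8 to 1.2 points in the authors' deposited table. CENPBD1P1 (RefSeq CENPBD2P), a pseudogene chosen after its values were seen, had larger ones: 7 of its 8 members gained, up to 7.9 points, and together they came to 30.4 points in the authors' deposited table (for the cluster, adjusted p = 0.00174). DYRK1A, a kinase gene, had 7 gains and 1 value of 0 among 8 members, up to 2.4 points, in the authors' deposited table. The 8 members of SYT1, the calcium sensor of vesicle release, stayed between -0.2 and 0 points in the authors' deposited table.

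**Figure D5:**
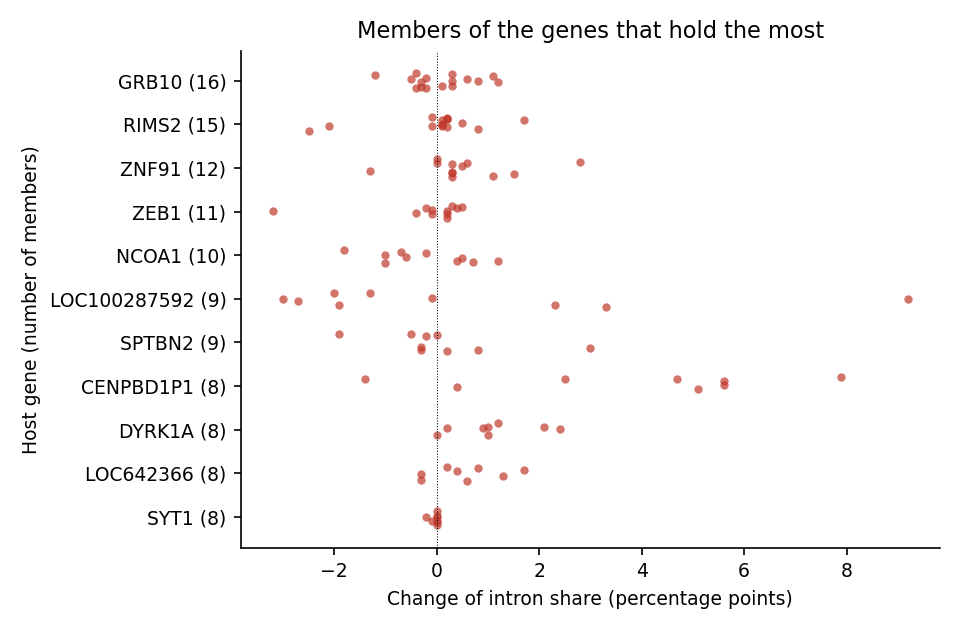
Each point is 1 member, with its change of intron share in percentage points on the x axis and its host gene on the y axis (number of members in brackets; vertical scatter within a row has no meaning). Points of GRB10 lie between -1.2 and 1.2, and those of CENPBD1P1 reach 7.9.

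Over all 2411 gene names of the splicing table, 332 (13.8%) had a member, and the counts of the gene lists below stand beside that share. Of 35 reported splicing targets of TDP-43, 32 were in the splicing table and 3 had a member: MYO18A, SETD5 and SYT7. Their 13 members had 5 gains and 7 losses, with a median of -0.1 points, against a median of 0.1 over all members. MYO18A, an unconventional myosin gene, had the only large one, 5.4 points at a member from 29124688 to 29131383 on chromosome 17, in the authors' deposited table. SETD5 encodes a chromatin regulator. Its member next to the unannotated exon from 9468519 gained 2.6 points, where the junction from the annotated donor to that exon gained 31.2 points, in the authors' deposited table (for the cluster, adjusted p = 3.01e-11). In SYT7, a synaptotagmin gene, the 2 members had 2.1 and -0.7 points in the cluster with the smallest adjusted p of the 340 that hold a member, 6.41e-23, in the authors' deposited table. Members were found in 0 of the 7 ALS and FTD genes, 0 of the 15 voltage-gated channel genes and 0 of the 13 autophagy and lysosome genes that the splicing table lists. With so few genes listed, a share of 13.8% gives only a small number of hosts, and nothing is read from these counts.

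Of 62 RNA-binding and splicing factor genes, 28 were in the splicing table and 6 had members: ELAVL4, LUC7L3, NOVA1, SFPQ, SRSF11 and TRA2B. Of their 14 members 1 was a gain, 1.2 points in SFPQ, and 10 were losses, of which the largest was -3.1 points in LUC7L3, in the authors' deposited table. NOVA1, which encodes a neuronal splicing regulator, accounts for 6 of the 10 losses, between -0.5 and -0.1 points in the authors' deposited table. The synapse list, with 28 genes in the table, had members in 5, ERC2, GRIA2, RIMS2, SYT1 and SYT7, with 13 gains, 8 losses and 6 values of 0, none of 5 points in size. The cytoskeleton and motor list, with 30 genes in the table, had 11 members in 5, ANK3, CLASP2, KIF1B, MYO18A and SPTBN1. KIF1B encodes a kinesin of axonal transport, and its largest member change was -3.6 points in a cluster where an annotated donor gained 12 points toward the acceptor of that member, in the authors' deposited table. The chromatin list, also with 30 genes in the table, had 10 members in 4, CHD8, HDAC9, SETD5 and SMARCA2. SMARCA2, a chromatin remodelling ATPase gene, gained 4.3 points at its member while an annotated intron had -25.6 points in the authors' deposited table.

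Of the 340 clusters with a member, those with the smallest adjusted p after SYT7 and SEMA4D were those of DAPK1, HMGN1 and MAP6. DAPK1, a kinase of cell death pathways, had 5 members that all gained, by 0.5 to 1.1 points, in the authors' deposited table (for the cluster, adjusted p = 4.65e-20). HMGN1 had 3 members between 0.2 and 0.4 points in the authors' deposited table (2.28e-18). MAP6, which encodes a protein that stabilises microtubules, had 2 members whose donors lie 5 nt apart, with 1.2 and 0.7 points, while the annotated intron had -31.0 points, in the authors' deposited table (6.66e-18). Adjusted p up to 0.01 was listed for 208 of the 340 clusters with a member (61.2%) and for 48.4% of all listed clusters. Clusters with a member were larger, with a median of 8.0 junctions against 4.0 in the others. Adjusted p was not compared at equal cluster size.

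Host genes were mainly protein coding, 307 of 332 (92.5%), as were 96.9% of the 2411 gene names of the splicing table. Long noncoding RNA genes were 11 of the 332 (3.31%, against 1.41% of all names) and transcribed pseudogenes 9 (2.71%, against 0.995%). These noncoding hosts held 73 members, 9.93% of members against 3.04% of all listed junctions, with 44 gains and 28 losses. Single clusters held several of these members each. CENPBD1P1 had 7 gains and 1 loss in 1 cluster, and LINC01572 had 4 gains and 3 losses in 1 cluster. Genes named ZNF, after the zinc finger, held 49 members (6.67%, against 3.83% of all listed junctions), with 33 gains and 14 losses. ZNF91 (9 gains, 1 loss) and ZNF292 (7 gains, 0 losses) held many of these gains, and the other 30 members had 17 gains and 13 losses. None of these shares was tested.

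Polyadenylation changed in some of the same genes. Of the 332 host genes, 68 were in the 3' end-seq table (20.5% of the hosts and 3.25% of the named genes of that table), where 16.7% of all names of the splicing table were listed. Of the 68, 61 (89.7%) were called longer, against 1881 of the 2220 entries of that table (84.7%). That base is larger than its 2092 named genes. The RNA-seq polyadenylation table listed 28 hosts (8.43%, against 8.21% of all names of the splicing table), 27 of them distal, and 95% of all its genes were distal. In 3' end-seq, RPS6KA3 had the largest lengthening among hosts, 0.584, and PTPRD the largest shortening, -0.318, in the authors' deposited table. A cryptic polyadenylation site was listed for 15 hosts (4.52%, against 3.57% of all names of the splicing table), which were 3.55% of the 423 genes with such a site. Of the 457 sites, 3 lay within 1000 nt of a member on the same strand, and 5 members (0.680%) were involved. The same share over all listed junctions was not computed, so whether 5 is few or many cannot be said. Besides the SERGEF pair, 2 members of ASPHD1 ended 132 nt before a site in a 3'UTR at 29919663 on chromosome 16, used at 2.19% in control and 17.5% in the knockdown. These members had 3.9 and 1.3 points, and another that lay farther away 7.6 points, in the authors' deposited table. In CNR1, the cannabinoid receptor gene, a member with -0.8 points in the authors' deposited table ended 714 nt from an intronic site used at 4.24% in control and 14.9% in the knockdown. Intronic sites of PTPRD (1.45% and 33.3%) and EML1 (4.19% and 27.6%) lay farther from the members of these genes. SERGEF was thus the only host with a member of at least 5 points within 1000 nt of a cryptic site.

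Each value is 1 deposited comparison, so no spread between libraries can be given, and the depth behind the junctions is unknown. The list holds clusters at adjusted p up to 0.05, so junctions of clusters that did not pass are not described.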

How the data were processed

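RNA-seq and 3' end-seq libraries (12 in all, 3 per group) were compared by the authors. The changes of intron share and of polyadenylation usage are scores that the authors deposited; the former were rounded to 3 decimals. Each p-value, per cluster or gene, was deposited by the authors after adjustment. Site usage is a deposited fraction per group, printed as percent. Per the submitters' processing notes, STAR, SAMtools, fastp, DESeq2 and Salmon were used with build hg38; the splicing caller's settings and annotation were not given in the sources used here. In another table, 6 per-sample columns stayed unused, because no label ties them to samples, so the planned test of host gene expression was not run.

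The start and end of a junction were read as the flanking exon bases, as GT and AG in the RefSeq windows require, and intron length as the bases between them. Gene names were matched to RefSeq (GRCh38.p14) by symbol or synonym. Named junctions were the 12 largest gains and 12 largest losses, members in the gene lists, the 5 shortest and 5 longest, clusters with most members or smallest p, and members near cryptic sites; others were chosen after their values were seen. Members and lists were chosen with earlier results of these data known. No test was run. The functions, in Python 3.11.15 with SciPy 1.17.1, pandas 2.3.3 and matplotlib 3.10.9, were tested on simulated data.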

Additional observations from a re-analysis of the deposited data

How the results depend on the processing

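Of 19 alternatives, 15 left the value within its 95% interval, or the count within 1.5 times. These intervals were computed over junctions that are not independent of each other, so they serve only as a rule for sorting the alternatives. Gains were 63.6% of the 77 members with a change of at least 5 points, in place of 56.7%. They were 70.8% of the 24 with at least 10 points. At 5 points or more, junctions with only the 5' site unannotated had 314 gains and 152 losses. Those with only the 3' site unannotated had 310 and 183, and new pairs of annotated sites 222 and 91. Annotated junctions had 996 and 1403, and all listed junctions 1949 and 1918. At 10 points or more all listed junctions had 861 gains and 850 losses. An excess of large gains was thus not particular to members. The median intron was 4064 nt for a change of at least 5 points, in place of 2994 nt. Within 5000 nt of a cryptic site there were 15 members, in place of 5. No member was listed in more than 1 cluster, lay opposite to its host's known strand or lacked a gene name, so these alternatives changed nothing. Limiting the share of gains to clusters with fewer than 5 members, chosen after seeing the data, gave 56.5%. The cause of these shifts was not tested. No paired analysis was possible because the deposited comparisons hold no value per library, and leaving out replicates was not run for the same reason. The unknown depth limits all values of 1 point or less.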
